A study of Mus musculus with 4 samples.

Results

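Bile acids are made from cholesterol in hepatocytes, conjugated there and pumped into the canaliculi, and 10 genes of this route were followed across the liver cells of a mouse model of hepatocellular carcinoma (HCC). They were taken by symbol from the 31053 genes of the deposited matrix, where each of the 10 has a row of its own. Cyp7a1, Cyp8b1, Cyp27a1 and Cyp7b1 encode the hydroxylases of synthesis, and Slc27a5 and Baat the enzymes that activate bile acids with coenzyme A and join them to taurine or glycine. Abcb11 is the canalicular bile salt export pump, Slc10a1 the sodium-dependent uptake carrier of the sinusoidal side, Nr1h4 the bile acid receptor FXR and Nr0b2 the small heterodimer partner SHP, a repressor.

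In the classic pathway Cyp7a1 makes the rate-limiting step and Cyp8b1 sets the share of cholic acid, while Cyp27a1 and Cyp7b1 act in the alternative, oxysterol pathway. Bile acids bind FXR, which induces Abcb11 and Nr0b2, and SHP together with signals from the intestinal hormone FGF15 lowers transcription of Cyp7a1 and Cyp8b1. Synthesis is known to be zoned in the liver lobule, with Cyp7a1 and Cyp27a1 toward the central vein.

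The series holds 1 sample of HCC tumor at each of 3 times, week 4 (HCC-ES), week 8 (HCC-MS) and a last time (HCC-LS) that is week 10 in its label and 12 in the series text, and 1 normal liver sample taken at week 0 (HCC-NL), all mouse livers, with the model called gene-induced, whose driver gene, strain, sex and number of animals are not given in the sources used here. Tissue was digested, red blood cells were lysed, and cells were sequenced with a 10x Genomics 3′ kit. No label or file pairs a barcode suffix with a sample, so the 4 suffixes are called libraries 1 to 4, the pool counts as 1 sample, and no week is compared with another. Values are UMI counts summed over cells and scaled to an equal total as CPM, with exact 95% intervals that cover counting error only. No test between groups could be made without replicates.

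The 34783 cells analysed held a median of 1287, 3369, 1310 and 2597 UMIs in libraries 1 to 4. They formed 24 clusters, of which 8 carried hepatocyte markers and held 20370 cells (58.6%). In each of the 8, at least 11 of 12 hepatocyte markers were found in 10% or more of the cells. The clusters are called here by leading genes: Elovl3 (3696 cells, 3625 of them in library 1), Saa1 with Mup genes (1527, library 3), Sds with Arg1 (3685, library 3), Lars2 with Cyp2c29 (938, library 3), Afp (2343, libraries 2 and 4), Glul with Oat (5128, mostly library 4), Igf2 with Cdk1 (2464, mostly library 2) and Apob with Neat1 (589; 331, 82 and 176 in libraries 2, 3 and 4). Because each cluster lies mostly in 1 or a pair of libraries, cluster and library cannot be told apart for most of them. The Apob–Neat1 cluster also stood apart in RNA makeup: 10.00% of its UMIs were mitochondrial, against 0.143% to 3.71% in the other 7, and the nuclear RNA Malat1 reached 15133 CPM, against 70.2 to 1153 CPM. Over all barcodes, 710 of 37357 barcode sequences occurred in more than 1 library.

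Among 14 marker-defined classes, 9 of the 10 genes peaked in the hepatocyte-like cells, as did 12.6% of the 13417 genes counted and 28 of 49 other genes of the bile acid route. Hepatocyte-like cells held between 88.3% (Slc10a1) and 94.8% (Baat) of each gene's UMIs. They were 58.6% of the cells, with a median of 2215 UMIs against 1414 in all other cells. Part of these shares thus follows from cell number and depth. Baat, the amino acid conjugase, had 124 CPM in hepatocyte-like cells and 29.1 CPM in the next class, neutrophil-like cells, a ratio of 4.28 (2.98 to 6.40) that was 1.69 without library 2. Slc27a5 was 3.15-fold (2.52 to 3.99), Abcb11 2.65-fold (2.21 to 3.21) and Cyp7a1 2.45-fold (1.98 to 3.06) above the next class, vascular endothelial-like cells in each case. The narrowest leads were those of Cyp8b1 (1.48-fold over conventional dendritic-like cells, 1.03 to 2.22) and Cyp27a1 (1.49-fold over macrophage-like cells, 1.35 to 1.65). With a library left out the cells were clustered and named anew, so a change cannot be credited to the library alone. The lead of Abcb11 was 1.62 without library 1 and 1.66 without library 3. That of Cyp8b1 was 2.31 without library 1 and 2.64 without library 4. That of Nr0b2, 1.996 over cholangiocyte-like cells, was 3.20 without library 1 and 4.37 without library 3. With cells thinned to 1000 UMIs the leads of Nr0b2 (1.21), Cyp27a1 (1.14), Slc10a1 (1.18, from 1.63) and Slc27a5 (1.66) were smaller. That of Baat was then 5.09. With libraries at equal weight that of Cyp7a1 was 1.36. With size factors that of Cyp7b1 was 1.22 (from 1.86), while those of Cyp7a1 (2.83) and Abcb11 (3.06) were larger. The next class may be another one in such a comparison.

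Nr1h4 was the exception in the pooled cells. Stellate- or fibroblast-like cells held 126 CPM (105 to 150.1; 123 UMIs in 321 cells), against 68.6 CPM (66.9 to 70.4) in hepatocyte-like cells, a 1.83-fold difference (1.52 to 2.19). In libraries 1 to 4 stellate- or fibroblast-like cells had 185, 128, 73.6 and 107 CPM, and hepatocyte-like cells 97.0, 72.7, 54.3 and 65.6 CPM, so the direction was the same in all 4. In libraries 2, 3 and 4 the intervals of both classes overlapped, and the stellate- or fibroblast-like cells there gave 14, 24 and 21 UMIs. The receptor had 25.5 CPM in cholangiocyte-like cells and at most 20.2 CPM in every other class. At an equal depth of 1000 UMIs, 10.4% of stellate- or fibroblast-like cells (6.83 to 14.9) and 7.02% of hepatocyte-like cells (6.64 to 7.43) had an Nr1h4 UMI, against 1.22% of T cell-like cells. With size factors in place of total counts the ratio was 1.20 (0.998 to 1.44), and without library 1 it was 1.33 (1.01 to 1.72).

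Cyp27a1 acts on cholesterol in macrophages as well as in the liver. Hepatocyte-like cells varied from library to library, at 35.4, 129, 39.4 and 120.1 CPM in libraries 1 to 4, while macrophage-like cells held 65.8, 67.0, 52.9 and 79.2 CPM. In libraries 1 and 3 the macrophage-like cells were thus the higher ones, unlike in the pooled cells. At equal depth 8.41% of hepatocyte-like cells (7.98 to 8.84) had a Cyp27a1 UMI, against 8.28% of macrophage-like cells (6.97 to 9.74) and 1.92% of T cell-like cells (1.33 to 2.69). Nr0b2 had 98.5 CPM in hepatocyte-like cells and 49.3 CPM in 100 cholangiocyte-like cells, 74 of them in library 1. At equal depth 9.14% of hepatocyte-like (8.70 to 9.59) and 7.29% of cholangiocyte-like cells (2.98 to 14.4) had an Nr0b2 UMI, against 1.40% of T cell-like cells (0.897 to 2.07).

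For Cyp7a1 the counts outside hepatocytes followed those inside. Hepatocyte-like cells had 3.76, 63.3, 18.5 and 72.2 CPM in libraries 1 to 4, and all other cells 0.270, 18.7, 9.60 and 26.3 CPM. In library 3 the level was 18.5 CPM (16.5 to 20.7) in hepatocyte-like cells, no higher than the 24.2 CPM (16.2 to 34.7; 29 UMIs in 1.41% of 567 cells) of T cell-like cells, which should lack the enzyme. At 1000 UMIs per cell, 3.31% of hepatocyte-like cells had a Cyp7a1 UMI, against 1.40% of T cell-like cells and 2.05% of vascular endothelial-like cells (median 2215, 1959 and 1579 UMIs before thinning). The share was 29.1% in the Apob–Neat1 and 9.19% in the Afp cluster, and between 0.238% (Elovl3) and 2.39% (Glul) in the other 6. Because the counts outside hepatocytes differed between libraries, each cluster was also set against the other cells of its own library. The Elovl3 cluster had 2.81 CPM (1.69 to 4.39) in library 1, against 0.270 CPM (0.0327 to 0.976) in cells that were not hepatocyte-like. In library 3 the Saa1 (3.24 CPM) and Sds (4.42 CPM) clusters lay under the 9.60 CPM (7.27 to 12.4) of those cells, and the interval of the Lars2 cluster (14.1 CPM, 8.50 to 22.0) overlapped theirs. The Glul cluster lay under them in libraries 2 and 4 (10.3 and 18.3 CPM, against 18.7 and 26.3 CPM), and the Igf2 cluster (22.7 and 25.9 CPM there) overlapped them. Levels at or under those of the other cells of the same library are read as background.

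**Figure D1:**
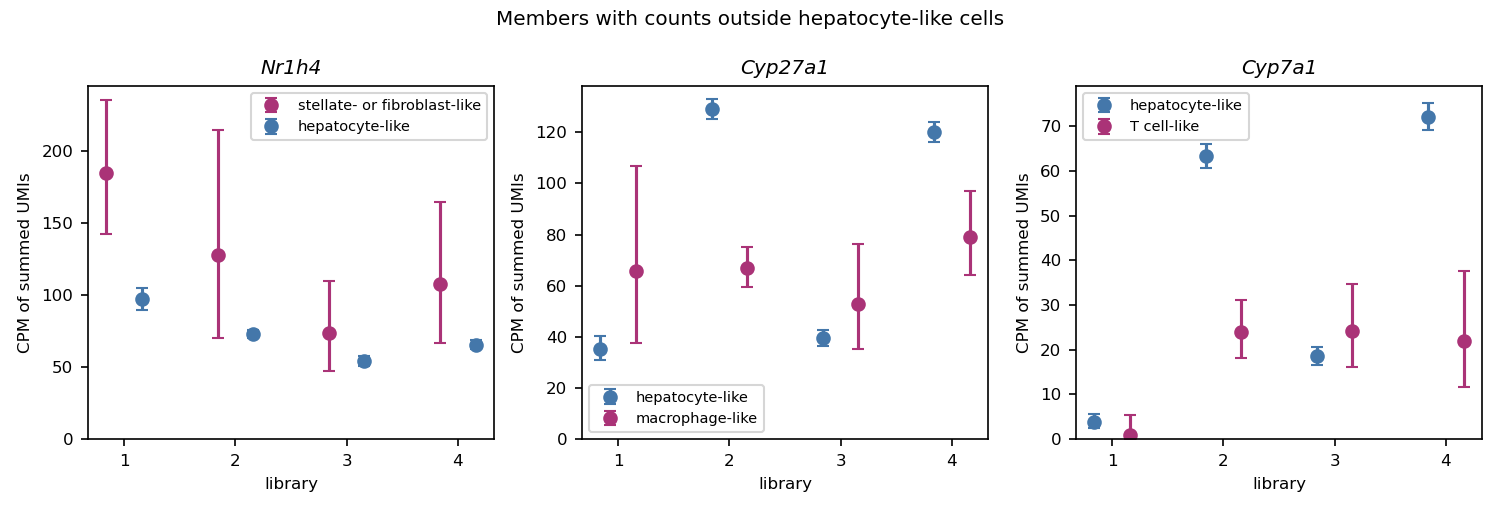
CPM of summed UMIs for Nr1h4, Cyp27a1 and Cyp7a1 in libraries 1 to 4, with hepatocyte-like cells (blue) and the class named in each legend (purple). Points are sums over the cells of a library and bars are exact Poisson 95% intervals. Nr1h4 was higher in stellate- or fibroblast-like than in hepatocyte-like cells in all 4 libraries. Cyp27a1 in macrophage-like cells stayed between 52.9 and 79.2 CPM, above hepatocyte-like cells in libraries 1 and 3.

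Among the synthesis enzymes, Cyp7a1 varied most between the 8 hepatocyte clusters. It reached 564 CPM (538 to 592) in the Apob–Neat1 cluster and 99.5 CPM (95.3 to 104) in the Afp cluster. The other 6 clusters held 23.3 CPM (Igf2), 16 CPM (Glul), 13.8 CPM (Lars2), 4.53 CPM (Sds), 4.14 CPM (Saa1) and 2.79 CPM (Elovl3). The highest over the lowest was 203-fold, resting on 19 UMIs in the Elovl3 cluster, and between 58.8-fold (resolution 0.5) and 448-fold (without library 4) under the alternatives. The Glul and Lars2 clusters were not apart, nor were the Sds, Saa1 and Elovl3 clusters. All 10 genes differed by at least 2-fold between their highest and lowest cluster, which 95.0% of the 11159 genes counted also did.

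Cyp7a1 was also uneven between cells. In the Apob–Neat1 cluster the 10% of cells with most of its UMIs held 52.8% of them, and 1 cell held 90. After thinning, 29.1% of the cells there had a Cyp7a1 UMI, and 9.47% of the Cyp7a1-positive cells also had a Cyp8b1 UMI, against 2.19% of the Cyp7a1-negative ones (16 cells with both).

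Cyp27a1, the mitochondrial sterol hydroxylase, followed a similar order, with 476 CPM (451 to 501) in the Apob–Neat1 and 151 CPM (146 to 156) in the Afp cluster, 102 CPM in the Igf2, 78.4 CPM in the Glul and 14.9 CPM (12.2 to 18.1) in the Sds cluster. Both hydroxylases were thus highest in the same pair of clusters. Their levels over 17 sums of a cluster within a library had a Spearman rho of 0.90, which describes these sums only, as they share libraries and depth.

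Cyp8b1 and Cyp7b1 were arranged differently. Cyp8b1 had 69.6 CPM (60.5 to 79.7) in the Apob–Neat1 cluster, 40.05 CPM (35.3 to 45.2) in the Saa1 cluster and 24.0 CPM (20.5 to 28.0) in the Elovl3 cluster, and only 3 UMIs, 2.08 CPM (0.428 to 6.07), in the Lars2 cluster. The Saa1 cluster, which was led by acute-phase and major urinary protein genes, stood 2.23-fold (1.95 to 2.55) above the other hepatocyte-like cells for Cyp8b1 and 4.89-fold (4.51 to 5.30) for Cyp7b1. At least 2-fold higher levels in that cluster were found for 3.16% of genes. Within library 3, which holds nearly all of the cluster, the ratios were 4.38 for Cyp8b1 and 2.25 for Cyp7b1. Cyp7b1, the oxysterol 7-alpha-hydroxylase that is higher in male than in female mouse livers, reached 127 CPM (119 to 136) there and 114 CPM (102 to 126) in the Apob–Neat1 cluster, levels that were not apart, and 9.91 CPM (8.76 to 11.2) in the Glul cluster.

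In all 4 libraries Cyp8b1 was lower, and Cyp27a1 higher, in the pericentral-sided cells as ranked by marker counts within a library. For this reason the 250 bases before the start of Cyp8b1 (RefSeq, GRCm38.p6, chr9:121916306-121916555, minus strand, printed 5′ to 3′ along the gene) are shown. The HNF4 motif CAAAGTCCA and the TATA motif TATAAA are in capitals.
Cyp8b1: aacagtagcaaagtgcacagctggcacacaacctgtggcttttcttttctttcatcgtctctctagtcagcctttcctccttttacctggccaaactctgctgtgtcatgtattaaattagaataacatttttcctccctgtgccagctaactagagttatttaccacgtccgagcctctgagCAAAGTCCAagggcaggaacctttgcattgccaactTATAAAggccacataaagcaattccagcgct
HNF4-alpha is a known activator of this gene. The motif CAAAGTCCA, searched on both strands, began 67 bases before the start site and occurs in 0.384% of 32851 mouse promoter windows of the same length, and TATAAA, also searched on both strands, in 12.4% of them. A match describes the letters alone.

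**Figure D2:**
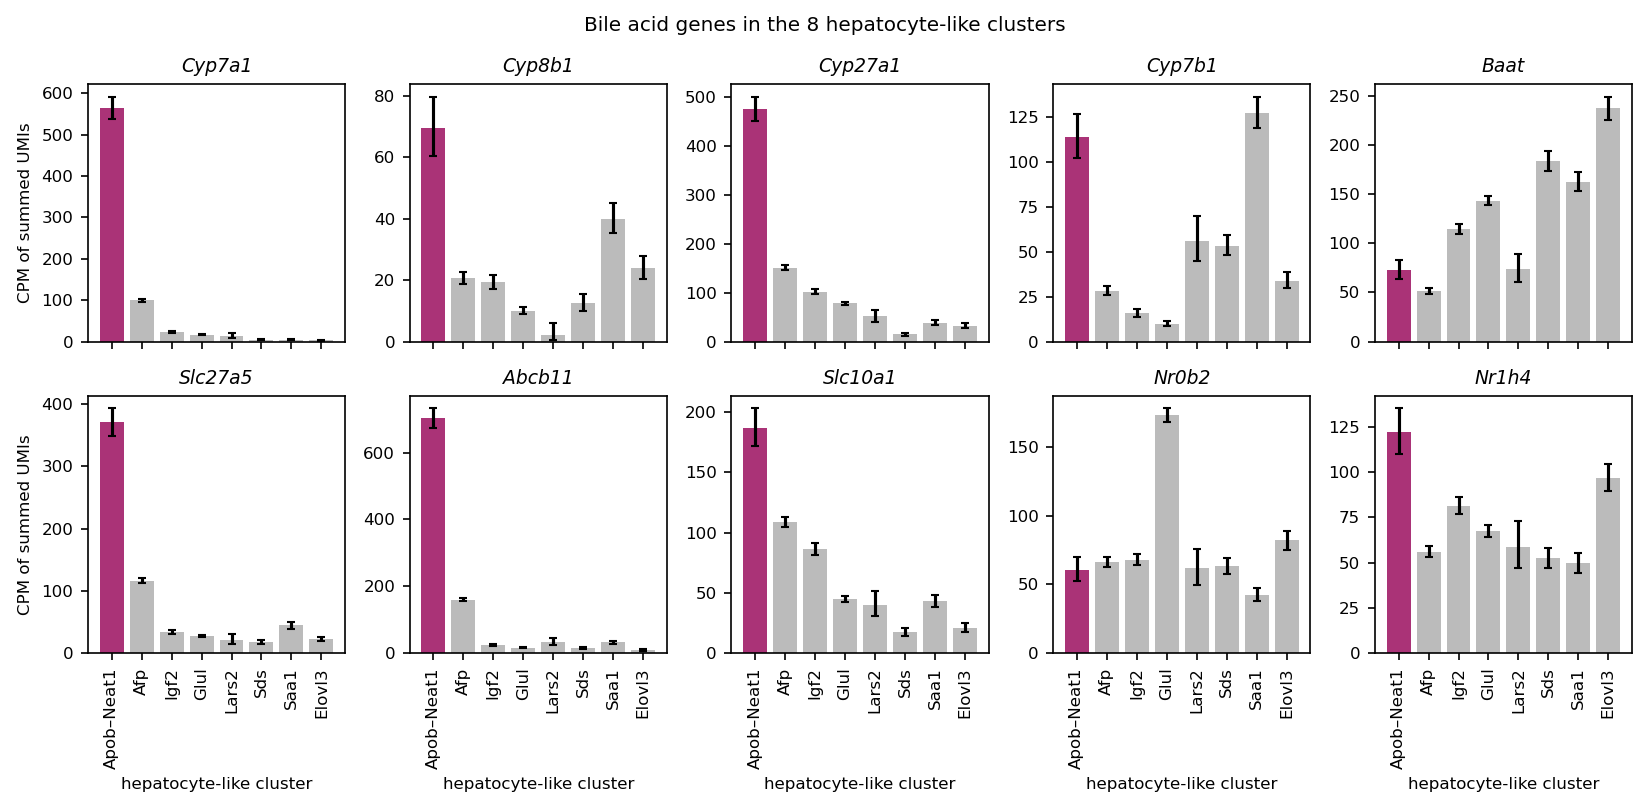
CPM of the 10 genes in the 8 hepatocyte-like clusters, each named by a leading gene; bars are sums over all cells of a cluster with exact Poisson 95% intervals, and the Apob–Neat1 cluster is purple. It holds the highest bar for 7 of the 10 genes, while Baat is highest in the Elovl3, Cyp7b1 in the Saa1 and Nr0b2 in the Glul cluster.

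In the Afp cluster the conjugation enzymes moved in opposite directions. Slc27a5, the bile acyl-CoA synthetase, had 371 CPM (349 to 393) in the Apob–Neat1 cluster and 116 CPM (112 to 121) in the Afp cluster, against 16.96 CPM (14.01 to 20.3) in the Sds cluster. Baat was highest in the Elovl3 cluster at 237 CPM (226 to 249.2), 2.06-fold (1.96 to 2.18) above the other hepatocyte-like cells, a size reached upward by 4.49% of genes there. Nearly all hepatocyte-like cells of library 1 lie in that cluster (3625 of 3696), and within library 1 the ratio to the few others was 1.19. It was lowest in the Afp cluster at 51.0 CPM (48.0 to 54.2), 0.346 times the other hepatocyte-like cells (0.324 to 0.368), a size reached downward by 5.21% of genes there. In the same Afp cluster Slc27a5 was 2.64-fold (2.50 to 2.79) higher, with 17.2% of genes at least 2-fold higher. Within libraries 2, 3 and 4 it was 1.69-fold, 2.91-fold and 3.25-fold higher, so under 2-fold in library 2. Baat was lower in the Afp cluster within each library that holds it, at 0.389, 0.306 and 0.465 times the other hepatocyte-like cells of libraries 2, 3 and 4.

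Abcb11, the export pump, had 703 CPM (673 to 733) in the Apob–Neat1 cluster and 160.2 CPM (155 to 166) in the Afp cluster, against 33.2 CPM in the Lars2, 32.5 CPM in the Saa1, 24.8 CPM in the Igf2, 16.5 CPM in the Glul, 14.6 CPM in the Sds and 9.53 CPM (7.35 to 12.1) in the Elovl3 cluster. The highest over the lowest was 73.7-fold, and between 19.6-fold (without library 2) and 133-fold (libraries at equal weight) under the alternatives. At 1000 UMIs per cell, 45.2% of cells of the Apob–Neat1 cluster (41.1 to 49.3) and 16.6% of the Afp cluster had an Abcb11 UMI, against 1.57% of T cell-like and 3.21% of vascular endothelial-like cells. In the other 6 clusters the share was 1.05% to 3.50%. Against cells of the same library that were not hepatocyte-like, the Elovl3 cluster was higher in library 1 (9.63 CPM, 7.43 to 12.3, against 0.946 CPM). So were the Saa1 (31.8 CPM, 27.6 to 36.4), Lars2 (29.7 CPM, 21.2 to 40.5) and Sds clusters (14.7 CPM, 12.0 to 17.9) in library 3, where those cells had 8.59 CPM (6.40 to 11.3). The Glul cluster lay under them in libraries 2 and 4 (12.8 and 18.03 CPM, against 28.0 and 28.9 CPM). The Igf2 cluster lay under them in library 2 (24.5 CPM, 21.7 to 27.5), and in library 4 its interval held their level (29.1 CPM, 23.4 to 35.7). As for Cyp7a1, Abcb11 levels in these libraries that are not above those of such cells are read as background.

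The promoter of Abcb11 (chr2:69342617-69342866, minus strand, same source) is shown because it holds a match to the kind of element that FXR is known to bind, an inverted repeat of hexamers like AGGTCA with a spacer of 1 base, in capitals.
Abcb11: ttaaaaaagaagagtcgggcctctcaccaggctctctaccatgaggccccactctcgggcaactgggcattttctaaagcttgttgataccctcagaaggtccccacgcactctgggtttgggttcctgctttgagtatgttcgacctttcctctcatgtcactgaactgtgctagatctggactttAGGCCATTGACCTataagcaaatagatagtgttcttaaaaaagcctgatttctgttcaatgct
The pattern searched, the letters AGGNCA, any base and TGACC, was chosen after this sequence had been read. Searched on both strands, it began 63 bases before the start site and occurs in 0.0761% of the 32851 windows. The hexamer AGGTCA, which overlaps it here on the other strand, occurs in 14.02% of them. Nr1h4, which encodes the receptor, spanned 2.46-fold between the clusters, with 122 CPM (110.1 to 135) in the Apob–Neat1 and 49.7 CPM (44.4 to 55.4) in the Saa1 cluster. Both Nr1h4 and Abcb11 were highest in the Apob–Neat1 cluster, and their Spearman rho over the 17 sums was 0.19. Receptor activity was not measured, and a link between receptor and pump was not tested.

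Slc10a1, the uptake carrier also known as NTCP, was also highest in the Apob–Neat1 and Afp clusters. It had 187 CPM (172 to 203) in the Apob–Neat1, 109 CPM (104 to 113) in the Afp and 86.3 CPM (81.7 to 91.1) in the Igf2 cluster, and 17.4 CPM (14.4 to 20.8) in the Sds cluster. Its span was 10.8-fold (8.82 to 13.2), 20.4-fold without library 1 and 5.46-fold at resolution 0.5.

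Nr0b2 had an order of its own. The Glul cluster, led by genes of pericentral hepatocytes, held 173 CPM (168 to 178), 2.66-fold (2.55 to 2.77) above the other hepatocyte-like cells, and 2.34% of genes were at least 2-fold higher there. It was 3.08-fold, 2.14-fold and 2.07-fold higher in that cluster within libraries 2, 3 and 4. The other 7 clusters lay between 42.3 CPM (37.5 to 47.7; Saa1) and 81.9 CPM (75.3 to 89.0; Elovl3). Relative to the other hepatocyte-like cells, Cyp7a1 was at 0.229 times (0.207 to 0.253) and Cyp8b1 at 0.420 times (0.368 to 0.478) in the same Glul cluster. The Cyp7a1 and Abcb11 levels there are read as background, as given above. Abcb11 (0.159 times) and Slc27a5 (0.357 times) were low there too, and 24.4% of all genes were at least 2-fold lower in that cluster. Over the 17 sums the rho of Nr0b2 was -0.14 with Cyp7a1 and -0.24 with Cyp8b1, and an effect of SHP was not tested.

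The promoter of Nr0b2 (chr4:133553126-133553375, plus strand, same source) is shown for its LRH-1 motifs, TCAAGG, and its TATA motif, in capitals. LRH-1, the product of Nr5a2, is a known activator of Nr0b2 and a partner through which SHP acts on Cyp7a1.
Nr0b2: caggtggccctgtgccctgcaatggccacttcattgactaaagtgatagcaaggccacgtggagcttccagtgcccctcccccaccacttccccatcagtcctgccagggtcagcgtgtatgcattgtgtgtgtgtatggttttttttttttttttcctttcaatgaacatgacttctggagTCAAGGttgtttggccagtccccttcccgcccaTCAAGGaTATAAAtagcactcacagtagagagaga
The motif TCAAGG began 68 and 35 bases before the start site. Searched on both strands it occurs in 12.5% of the 32851 windows.

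In the Apob–Neat1 cluster 7 of the 10 genes were at least 2-fold higher than in the other hepatocyte-like cells, where 45.0% of all genes were, with a median log2 ratio of 0.79. Cyp7a1 stood 16.1-fold (15.1 to 17.05), Abcb11 12.9-fold (12.2 to 13.6), Slc27a5 7.35-fold (6.87 to 7.85), Cyp27a1 5.39-fold (5.09 to 5.70), Cyp8b1 3.91-fold (3.36 to 4.52), Cyp7b1 3.70-fold (3.30 to 4.15) and Slc10a1 2.94-fold (2.69 to 3.21) higher. Nr1h4 was at a ratio of 1.83 (1.64 to 2.04), close to the median gene, while Nr0b2 (0.607, 0.522 to 0.704) and Baat (0.578, 0.503 to 0.661) had ratios under 1. None of the 10 was at least 2-fold lower, as 16.3% of all genes were. The genes of the route thus did not move together there.

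The same contrast was read within libraries 2, 3 and 4, which hold the cluster. Cyp7a1 was 11.1-fold, 44.0-fold and 16.3-fold higher, and Abcb11 9.25-fold, 12.3-fold and 14.99-fold. Cyp27a1, Slc27a5 and Cyp7b1 were also at least 2-fold higher in each of the 3 libraries. Cyp8b1 was 3.44-fold and 7.38-fold higher in libraries 2 and 4, but had a ratio of 0.322 on 2 UMIs in library 3. Slc10a1 had a ratio of 1.11 in library 3, on 10 UMIs. With size factors in place of totals, 4 of the 10 stayed at least 2-fold higher: Cyp7a1 (8.09-fold), Abcb11 (6.49-fold), Slc27a5 (3.70-fold) and Cyp27a1 (2.71-fold). Under that scaling the ratio of Nr1h4 was 0.922. With the stricter filter on cells Cyp8b1 (1.29) and Slc10a1 (1.90) were under 2-fold and Nr1h4 (2.34) was over it, and without library 3 Cyp7b1 was 6.05-fold higher. With doublets kept, at resolution 0.5 and without library 2 no cluster matched this one, so that no value was had.

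Mitochondrial share and Malat1 moved with these levels. Within 11 sets of cells of 1 cluster and 1 library, the cells with the higher mitochondrial share had more Abcb11 in 10 sets, with a median ratio of 2.17 and an interval above 1 in 9 sets. Slc27a5 and Cyp7b1 were higher in all 11, with medians of 1.52 and 1.46. Cyp7a1 was higher in 10 of the 11 with a median of 1.76, but lower in the Apob–Neat1 cluster of library 2 (0.844, 0.734 to 0.970). Baat (0.929), Nr0b2 (0.955) and Nr1h4 (0.932) had medians just under 1, Cyp8b1 (0.958) too, although it was 4.13-fold higher (2.50 to 7.19; 88 and 19 UMIs) in the Apob–Neat1 cluster of library 2, and Slc10a1 (1.29) and Cyp27a1 (1.19) above it. Over the 17 sums, rho with Malat1 was 0.79 for Abcb11, 0.74 for Cyp7a1 and -0.55 for Baat. Markers of other classes were also counted in the Apob–Neat1 cluster. No marker of the cholangiocyte, sinusoidal or vascular endothelial, macrophage, neutrophil, conventional dendritic, B, T, NK, stellate or platelet lists was found in 10% of the cells. Of the other lists, 2 of 9 Kupffer, 1 of 8 monocyte, 2 of 8 plasmacytoid dendritic, 2 of 7 plasma cell and 1 of 10 erythroid markers were. The summed level of a list in the cluster ranged from 0.666 CPM for the NK list to 1061 CPM for the monocyte list, and that of the Kupffer list was 196 CPM there and 10666 CPM in Kupffer-like cells. The part of mitochondrial share, Malat1 and other cells' RNA in these differences was not tested.

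**Figure D3:**
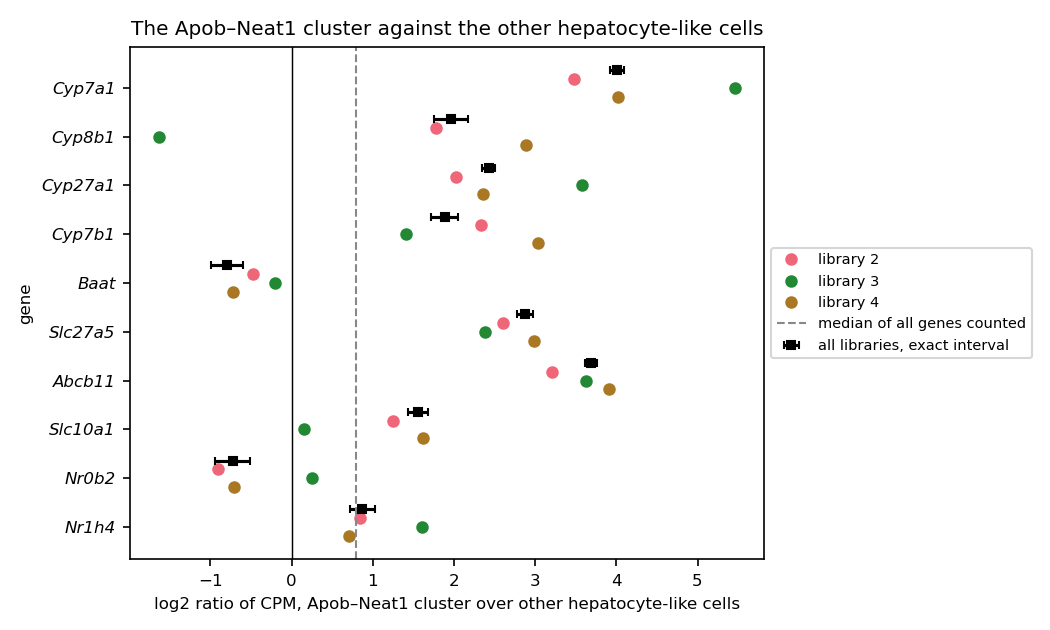
Log2 ratio of CPM in the Apob–Neat1 cluster over all other hepatocyte-like cells, for each gene; squares are all libraries with exact 95% intervals, circles are single libraries, and the dashed line is the median of all genes counted (0.79). Cyp7a1 and Abcb11 lie farthest right, and Baat and Nr0b2 left of 0 in the pooled cells.

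In the Afp cluster 3 of the 10 genes were at least 2-fold higher than in the other hepatocyte-like cells, Abcb11 (3.195-fold, 3.05 to 3.35), Slc27a5 (2.64-fold) and Cyp7a1 (2.58-fold, 2.44 to 2.74), and 1, Baat, was lower, beside 17.2% and 5.21% of all genes. Within libraries 2, 3 and 4 Abcb11 was 1.86-fold, 5.74-fold and 3.62-fold and Cyp7a1 1.28-fold, 7.46-fold and 3.08-fold above the other hepatocyte-like cells. In the Elovl3, Sds and Saa1 clusters the counts of lower genes were near the shares of all genes. The Elovl3 and Sds clusters each had 5 of the 10 at least 2-fold lower, Cyp7a1, Cyp27a1, Slc27a5, Abcb11 and Slc10a1 in both, where 38.8% and 36.6% of all genes were lower. The Saa1 cluster had 4 lower (Cyp7a1, Cyp27a1, Abcb11 and Nr0b2), against 43.4% of all genes, and the Glul cluster 5, against 24.4%. Within library 3 those of the Saa1 cluster were at 0.116, 0.936, 0.810 and 0.634 times, so only Cyp7a1 stayed at least 2-fold lower. The 5 genes of the Sds cluster stayed at least 2-fold lower within library 3, as did those of the Glul cluster within libraries 2 and 4. At least 2-fold higher were Baat in the Elovl3, Cyp8b1 and Cyp7b1 in the Saa1 and Nr0b2 in the Glul cluster. In the Lars2 cluster 4 were lower, against 15.0% of all genes, and in the Igf2 cluster 4, against 7.28%. Cyp7a1, Slc27a5 and Abcb11 were lower in both, with Cyp8b1 in the Lars2 and Cyp7b1 in the Igf2 cluster. Within library 3 the ratios in the Lars2 cluster were 0.747, 0.635 and 0.804 for the shared genes in turn, and 0.0660 for Cyp8b1 on 2 UMIs. In the Igf2 cluster Cyp7b1 within libraries 2 and 4 (0.625 and 0.666) and Slc27a5 within library 4 (0.518) were less than 2-fold lower. Cyp7a1 and Abcb11 were at least 2-fold lower there within both libraries. None of the 10 was at least 2-fold higher in the Sds, Lars2 or Igf2 cluster, where 3.67%, 1.66% and 6.05% of all genes were.

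The rest of the route was read from 55 further genes, of which 48 had enough counts in hepatocyte-like cells. In the Apob–Neat1 cluster 30 of the 48 were at least 2-fold higher and 6 at least 2-fold lower, beside 45.0% and 16.3% of all genes, with a median ratio of 3.41. All 8 genes of canalicular export were higher, among them Abcc2 (18.9-fold), which exports conjugated bilirubin and other organic anions, the phospholipid floppase Abcb4 (11.7-fold), Abcb1a (11.4-fold) and the flippase Atp8b1 (9.98-fold). All 5 genes of uptake were higher, led by Slco1a4 (11.9-fold) and Slco1b2 (7.71-fold). Of the 3 genes of basolateral export, Abcc4 (19.8-fold) and Abcc3 (9.98-fold) were higher and Slc51b had a ratio of 0.643.

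Genes of synthesis were split. Of 13, the oxysterol hydroxylase Cyp39a1 (9.79-fold), the acyl-CoA synthetase Slc27a2 (8.15-fold), Cyp2c70 (3.31-fold), which makes muricholic acids in mice, and the peroxisomal transporter Abcd3 (2.23-fold) were higher. Akr1c6 (0.287), Scp2 (0.381) and the racemase Amacr (0.422) were at least 2-fold lower. Among 13 regulators 8 were higher and none was lower by 2-fold, with the FGF15 co-receptor Klb at 14.9-fold and its receptor Fgfr4 at 9.49-fold. Of 6 genes of detoxification, Ugt2b5 (8.27-fold), Ugt1a1 (7.72-fold) and Cyp3a11 (5.64-fold) were higher and the sulfotransferases Sult2a8 (0.244), Sult1d1 (0.405) and Sult2a1 (0.457) lower.

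The Afp cluster, led by the fetal genes Afp, Dlk1 and H19, had 18 of the 48 higher and 7 lower, beside 17.2% and 5.21% of all genes. There 5 of 8 genes of canalicular export, 4 of 5 of uptake and all 3 of basolateral export were at least 2-fold higher, and 1 of 13 of synthesis was higher and 5 lower. In the Glul cluster 3 of the 48 were higher and 22 lower, beside 2.34% and 24.4% of all genes.

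Between libraries 8 of the 10 genes differed by at least 2-fold in hepatocyte-like cells, against 62.8% of all genes and 36 of the 48 other genes of the route. Levels in libraries 2 and 4 stood against those in 1 and 3 for most. Abcb11 had 12.9, 104, 36.4 and 82.6 CPM in libraries 1 to 4, an 8.10-fold span (6.56 to 10.1), and Cyp7a1 a 19.2-fold span (13.1 to 29.5) between 72.2 CPM in library 4 and 3.76 CPM in library 1. Without library 1, and with cells clustered and named anew, these spans were 2.10-fold and 2.78-fold. Without library 2, likewise, they were 4.95-fold and 32.3-fold. The hepatocyte-like cells were then 13571 and 13945 newly defined ones, so these values do not give the weight of a library alone. In the same way, without library 1 the spans of Baat (1.67) and Slc27a5 (1.83) were under 2-fold. So was that of Nr0b2 without library 4 (1.49), and that of Cyp7b1 was 2.22 without library 3. Slc10a1 (24.3, 88.5, 30.6 and 75.5 CPM) and Slc27a5 (25.3, 76.1, 32.9 and 69.0 CPM) had the same order of libraries as Abcb11. Libraries 2 and 4 were also the deeper ones and held most of the Afp and Apob–Neat1 clusters, and the median gene was higher there by 0.68 on the log2 scale.

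Other genes ran against that order. Baat had 237, 81.5, 153 and 131 CPM, highest in library 1 and lowest in library 2, and Cyp7b1 35.4, 23.4, 83.1 and 16.9 CPM, highest in library 3. With libraries 2 and 4 set together against 1 and 3, 5 of the 10 were at least 2-fold higher, against 35.7% of all genes: Cyp7a1 (4.75-fold), Cyp27a1 (3.26-fold), Abcb11 (3.18-fold), Slc10a1 (2.86-fold) and Slc27a5 (2.37-fold). Cyp7b1 alone was at least 2-fold lower, at 0.293 times (0.273 to 0.316), as were 4.81% of all genes, and Baat was at 0.593 times (0.570 to 0.616). Nr0b2 was highest in library 4 (139 CPM), where the Glul cluster lies, and libraries 1 and 2 (81.5 and 85.3 CPM) were not apart. Cyp8b1 (25.01, 19.5, 20.8 and 17.8 CPM) and Nr1h4 (97.0, 72.7, 54.3 and 65.6 CPM) stayed within 2-fold. With size factors Nr1h4 spanned 2.06-fold and Nr0b2 1.89-fold, so that the 8 genes were not the same ones.

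Without the Apob–Neat1 cluster 8 of the 10 differed by at least 2-fold, as with it. Cyp7a1 then had 3.76, 41.1, 10.6 and 49.7 CPM and Abcb11 12.9, 72.4, 30.4 and 58.4 CPM in libraries 1 to 4, while Baat and Nr0b2 hardly moved. With size factors as well, Cyp8b1 and Nr1h4 reached 2-fold and Slc27a5 and Nr0b2 did not. Without both that cluster and library 1, 5 of the 10 differed by at least 2-fold.

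**Figure D4:**
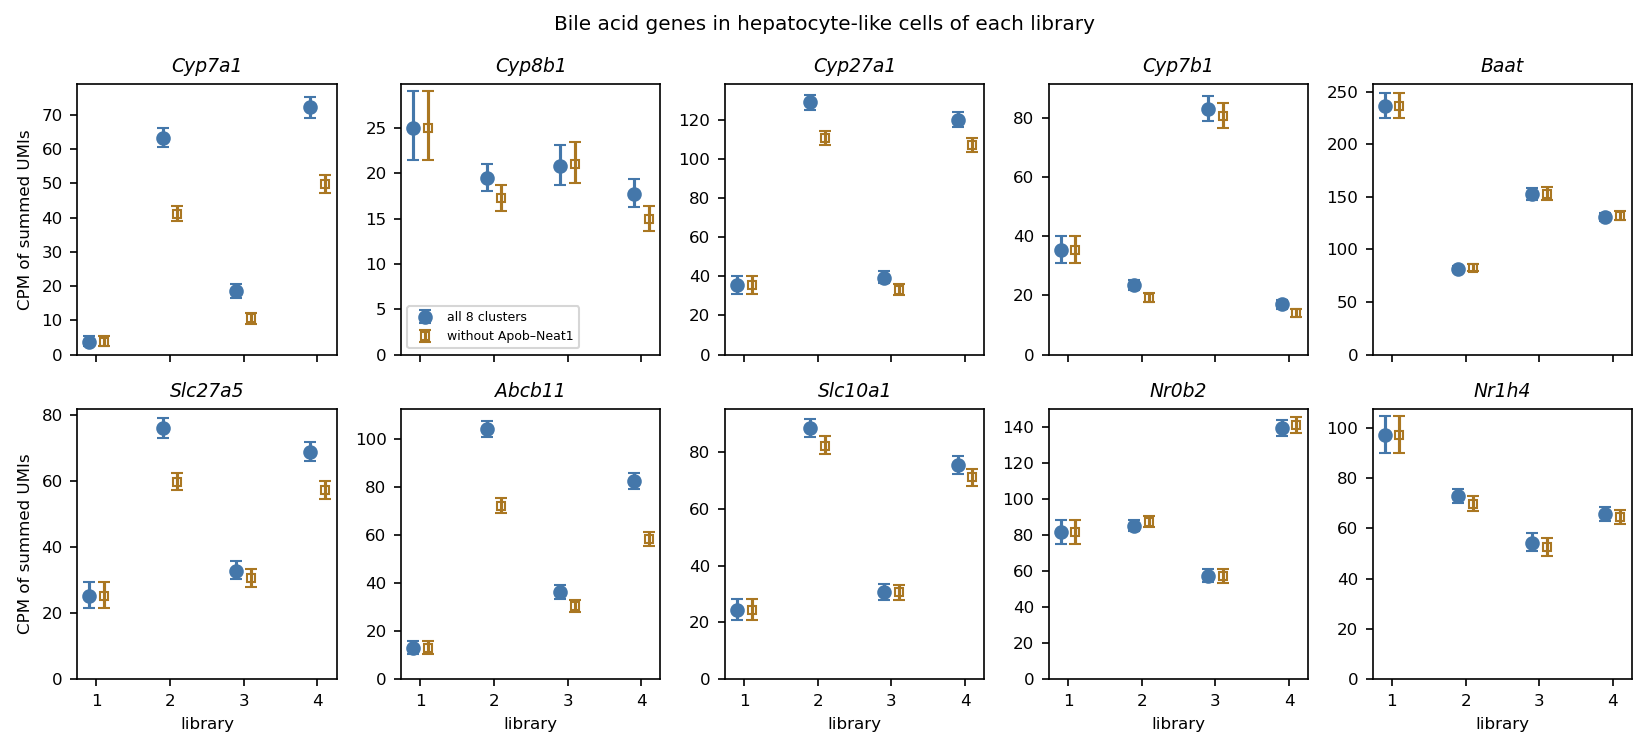
CPM of each gene in hepatocyte-like cells of libraries 1 to 4, over all 8 clusters (filled circles) and without the Apob–Neat1 cluster (open squares), with exact Poisson 95% intervals. Cyp7a1, Cyp27a1, Slc27a5, Abcb11 and Slc10a1 are higher in libraries 2 and 4 than in 1 and 3, and Baat is highest in library 1.

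To set the genes against zonation markers, hepatocyte-like cells with at least 10 UMIs of those markers (80.9% of them) were ranked within each library. The rank was by pericentral over periportal marker counts, and the cells were cut into quartiles. Quartiles are relative to a library: the lower one of library 4 held 4422 CPM of Glul, above the 3429 CPM of the upper one of library 1. A quartile is thus no fixed place in the lobule, and where its cells lay was not tested. A gene counted as higher where the upper, pericentral-sided quartile was at least 25% above the lower one and above it in every library, and as lower where it was at least 20% below it and below it in every library. Cyp27a1 alone counted as higher, at 125 CPM in the upper and 90.2 CPM in the lower quartile (1.38-fold, 1.31 to 1.46), as did 7.44% of 10293 genes. Its ratios were 1.82, 1.14, 6.12 and 1.31 in libraries 1 to 4. With the cells cut at the median in place of quartiles it was 1.22, with cells thinned to 1000 UMIs 1.06 and without library 3 1.248, each under that limit.

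Cyp8b1 ran the other way in all 4 libraries, as 2.87% of genes did. The upper quartile had 7.37 CPM and the lower quartile 29.8 CPM, a ratio of 0.248 (0.207 to 0.295), with 0.630, 0.161, 0.116 and 0.281 in libraries 1 to 4. It was 0.351 or below under every alternative that kept quartiles.

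Cyp7a1 did not hold 1 direction. Upper and lower quartiles had 15 and 0 UMIs in library 1, for which no fold is given, and 72.8 and 1.05 CPM in library 3, a 69.3-fold difference (29.3 to 215) on 248 and 5 UMIs. In library 4 they had 121 and 74.6 CPM (1.62-fold, 1.46 to 1.79), but in library 2 they had 42.6 and 65.1 CPM (0.654, 0.573 to 0.744). Nr0b2 was 2.85-fold higher in the upper quartile of library 2 (146 and 51.2 CPM) and 1.53-fold in library 4, 1.27-fold in library 3, and level in library 1 (0.947, 0.739 to 1.21). Slc10a1 (0.886), Baat (0.848) and Nr1h4 (0.874) were slightly lower and Slc27a5 (1.30) and Abcb11 (1.16) slightly higher in the pooled upper quartile, with mixed directions in single libraries.

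The quartiles also differed in cluster makeup. In library 3 the Lars2 cluster made up 48.0% of the upper and 0% of the lower quartile, the Afp cluster 8.57% and 0%, the Apob–Neat1 cluster 6.26% and 0.220%, and mitochondrial UMIs 2.48% and 1.11%. Of the 312 Cyp7a1 UMIs of library 3, the Apob–Neat1 cluster held 137, the Afp cluster 93 and the Lars2 cluster 19. In library 2 the Glul cluster made up 44.1% of the upper and 6.17% of the lower quartile. Library 1 was the most even, with 96.2% and 97.9% of the cells in the Elovl3 cluster. Zonation and cluster cannot be told apart in libraries 2 and 3.

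Of the 48 other genes of the route, 13 were higher in the pericentral-sided quartile in every library, led by Akr1c6 (2.60-fold), Slco1b2 (2.53-fold), Cyp3a11 (1.87-fold) and Amacr (1.85-fold). Only Slc51b (0.168), a subunit of the basolateral bile acid exporter, and Cyp2a12 (0.30006) were lower in every library.

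**Figure D5:**
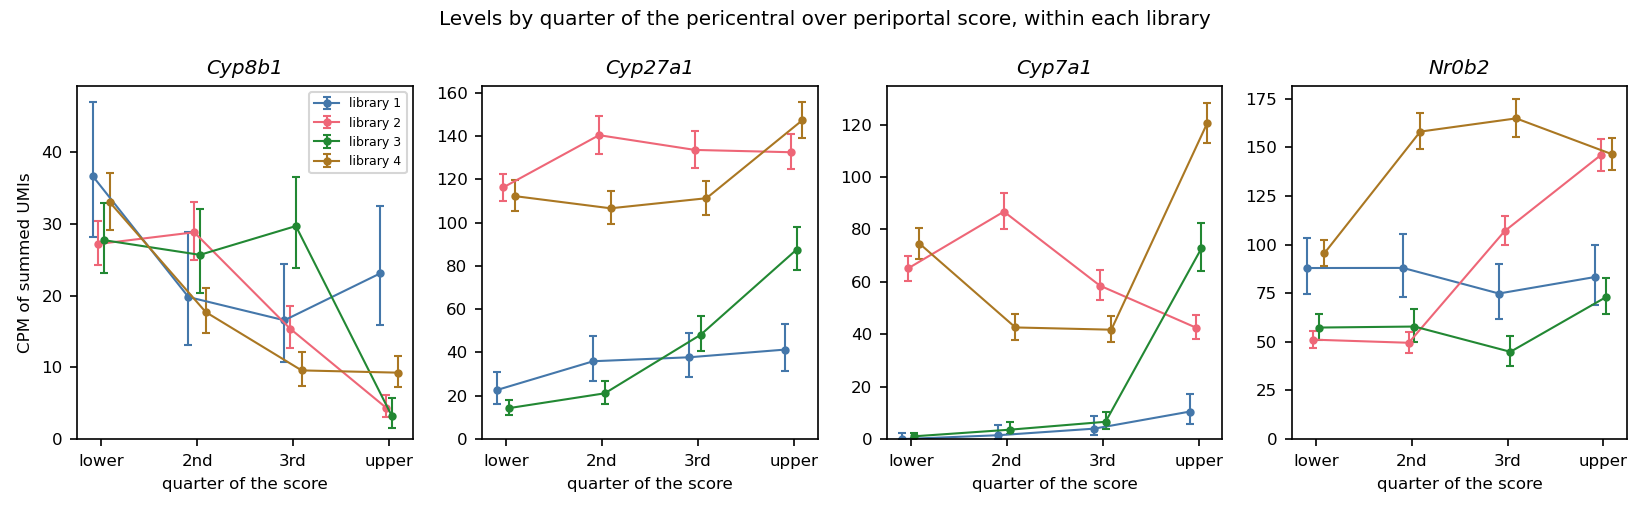
CPM of Cyp8b1, Cyp27a1, Cyp7a1 and Nr0b2 by quartile of the zonation score, with the pericentral side at the right, in each library; points are sums over the cells of a quartile with exact Poisson 95% intervals. Cyp8b1 is lower in the upper than in the lower quartile in all 4 libraries, and Cyp7a1 is higher in libraries 1, 3 and 4 and lower in library 2.

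The genes whose levels were most like each member over the 17 cluster-by-library sums, among 8411 genes with at least 500 UMIs, were ranked by Spearman rho. Cyp7a1 was most like Leng8 (0.99), Clasp1 (0.98) and Notum (0.98), Abcb11 most like Tmem19 (0.99), Col18a1 (0.99) and C3 (0.99), and Cyp27a1 most like Sppl3 (0.99), Ctsf (0.99) and Abca6 (0.99). Slc27a5 was most like Cyp2d22 (0.99), H2-Q10 (0.98) and Cyp4f15 (0.98), and Slc10a1 most like Abhd16a (0.96), Tspan9 (0.96) and Stom (0.95). Among the members, Abcb11 with Slc27a5 and Cyp27a1 with Slc27a5 reached 0.95, and Baat had -0.66 with Cyp7a1. Cyp8b1 was nearest to Pglyrp2 (0.92), Cyp7b1 to Lifr (0.95), Baat to Idi1 (0.91), Nr1h4 to Ppp2r5a (0.89) and Nr0b2, with the loosest match, to Chp1 (0.81).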

How the data were processed

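Per the labels' protocols, tissue was digested, filtered, treated to lyse red blood cells and made into 10x Genomics 3′ libraries, kit version 3. The authors deposited a matrix of unnormalized UMI counts made with Cell Ranger 6.0.1 (named in the file headers) on mm9 (named in the labels), with an annotation not given in the sources used here. No source pairs a barcode suffix with a sample, so the planned comparison of tumor weeks with normal liver was not computed.

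Of 38072 barcodes (130199595 UMIs), those with at least 200 genes, 500 UMIs and under 20% mitochondrial UMIs were kept, and 1367 doublets were removed (Scrublet method of scanpy 1.11.5, score above 0.25), leaving 34783 cells with 121711159 UMIs. Cells were clustered (2000 variable genes, 30 components, 15 neighbours, Leiden resolution 1) without the genes of the route. Clusters were named from marker lists, by at least 3 markers detected in 10% of the cells, and 1 cluster led by Elane and Mpo was left unnamed by a rule added after seeing the data. CPM are ratios of sums, with exact Poisson intervals; ratios have conditional binomial and shares Clopper-Pearson intervals (scipy 1.17.1), all at 95% and for counting error only. Genes needed 100 UMIs to be counted, "higher" means at least 2-fold with an interval above 1, and the zonation limits are 25% higher and 20% lower. The code was tested on simulated counts. All 10 genes are named, and of the other genes of the route up to 4 per group by size of the ratio, plus 3 most alike per gene. The members and lists were chosen with earlier results of these data known. Promoter sequences are RefSeq's for GRCm38.p6, found for 6 of the 10 genes. Alternatives were stricter filters, doublets kept, resolutions 0.5 and 2, other scalings, thinning to 1000 UMIs and each library left out. Cells were clustered and named anew for all of these except the other scalings.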

Additional observations from a re-analysis of the deposited data

Results flagged for a closer look

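Of the ratios between the upper and lower quartiles of the zonation score, 6 of the genes followed had an interval above 1 in a library and below 1 in another. The share of all genes that did so is not given, so whether this count is high for the route cannot be told. The difference between libraries was not tested, and each library is 1 sample at most. Cyp7a1 was 69.3 in library 3 and 0.654 in library 2. Abcb11 was 3.94 in library 3 and 0.886 in library 2. Baat was 1.13 in library 2 and 0.515 in library 3, Cyp7b1 1.46 in library 4 and 0.846 in library 3, Slc27a5 1.38 in library 4 and 0.646 in library 1, and Nr1h4 1.26 in library 3 and 0.642 in library 4.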

How the results depend on the processing

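Under every alternative run 9 of the 10 genes were highest in hepatocyte-like cells, and 9 or 10 genes differed by at least 2-fold between clusters. The count between libraries stayed at 8 under the alternatives that kept all libraries, with size factors by gaining Nr1h4 and losing Nr0b2, and was 6 to 7 with a library left out. Without the Apob–Neat1 cluster (an alternative chosen after seeing the data) it was also 8, and 5 to 7 with a library left out as well. The count of 7 genes higher in the Apob–Neat1 cluster was 4 with size factors, where Nr1h4 turned to 0.922, and 6 to 8 otherwise; with doublets kept, at resolution 0.5 and without library 2 no cluster matched it and no value was had. The least stable count was that of genes higher in the pericentral-sided quartile, 1 as reported: it was 2 without Glul in the list, at resolution 2 and without the Apob–Neat1 cluster, 0 with cells cut at the median or thinned to 1000 UMIs, and 0 to 3 with a library left out. Pooled ratios there that changed side were Slc10a1 to 1.02 without Glul, Cyp7a1 to 0.995 and Slc27a5 to 0.932 with thinned cells, while with a library left out Slc10a1 was 0.813 to 1.08, above 1 without library 2, Cyp7b1 (1.02) 0.878 to 1.22, under 1 without library 1, 2 or 4, and Nr1h4 0.798 to 1.03, above 1 without library 4. The cause of these changes was not tested. Of the 48 other genes of the route, 36 differed by at least 2-fold both between clusters and between libraries (24 to 36 under the alternatives). Of all genes, 95.0% differed so between clusters and 62.8% between libraries, and the share past both limits is not given. No paired analysis was possible because no group has a replicate and no column carries a replicate number.

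Depth limits what can be read: library 1 and library 3 cells held fewer UMIs, so that Cyp7a1 there rests on 26 and 312 UMIs in hepatocyte-like cells, and Nr1h4 in stellate- or fibroblast-like cells on 14 to 64 UMIs per library. Intervals cover counting error only and say nothing of the spread between animals.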

Other observations

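After the values had been seen, the counted genes of the route whose product has a well-known place in the cell were set into membrane proteins (33) and soluble proteins (24). In the Apob–Neat1 cluster 30 of the 33 membrane proteins were at least 2-fold higher than in the other hepatocyte-like cells and none was at least 2-fold lower (median ratio 7.44; 45.0% of all genes were higher and 16.3% lower), whereas 6 of the 24 soluble proteins were higher and 6 lower (median 0.848). The 6 lower ones were Scp2, Akr1c6, Amacr and 3 sulfotransferases, and Slc51b, Cyp2a12 and Hsd3b7 were the membrane proteins that did not reach 2-fold.

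The Afp cluster had 20 of 33 membrane proteins higher and 3 lower (median 2.40), against 1 of 24 soluble proteins higher and 5 lower (median 0.738), beside 17.2% and 5.21% of all genes. The Elovl3 cluster had 25 of 33 membrane proteins at least 2-fold lower and 2 higher (median 0.235). Of its 24 soluble proteins 2 were lower and 2 higher (median 0.946), beside 38.8% and 4.49% of all genes. In the Sds cluster 25 membrane and 7 soluble proteins were lower (medians 0.230 and 0.652), beside 36.6% of all genes. In the Glul cluster 26 and 1 were lower (medians 0.292 and 1.24), beside 24.4%. The Igf2 cluster had 11 and 1 lower (medians 0.564 and 1.03), beside 7.28%. The split was narrower in the Saa1 cluster, with 19 of 33 membrane and 11 of 24 soluble proteins lower (medians 0.364 and 0.553; 43.4% of all genes), and in the Lars2 cluster, with medians of 0.546 and 0.702. The genes were grouped with these values known, the grouping carries no test, and its part in the results of the report was not tested.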
